A study of Homo sapiens with 8 samples.

Results

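The PMP22 and EMP family, 4 genes for small tetraspan membrane proteins, was followed through 8 RNA sequencing libraries of LS174T, a long-established line of human colon cancer cells. The members were PMP22 (ENSG00000109099, chromosome 17), EMP1 (ENSG00000134531, chromosome 12), EMP2 (ENSG00000213853, chromosome 16) and EMP3 (ENSG00000142227, chromosome 19), out of 57736 gene identifiers listed, and all 4 passed the filter on low values that left 22100 genes for testing. PMP22 and EMP1 were chosen by their higher values with doxycycline in these libraries, so for them the doxycycline responses and their difference are descriptions without a test. The responses of EMP2 and EMP3, and the levels of all 4 genes between the cell lines, were not used in that choice.

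The cells were derivatives of LS174T that carry the Tet repressor and a short hairpin RNA switched on by doxycycline. The hairpin was directed against WiNTRLINC1, a long non-coding RNA, or against ASCL2, a basic helix-loop-helix factor active in intestinal stem cells. The groups were the WiNTRLINC1 line with doxycycline at 1 ug/ml for 3 days, the same line untreated for 3 days, the ASCL2 line with doxycycline at 1 ug/ml for 3 days, and that line untreated, with 2 libraries each. No cells that took doxycycline without a hairpin were analysed here, so hairpin and drug cannot be told apart. The WiNTRLINC1 line came from clones picked by RT-PCR, the ASCL2 line was made earlier, and clone, hairpin and handling cannot be told apart between the lines. The genotype label of every sample names the other target than its title does, and the groups follow the titles. The labels do not say that the libraries of a group came from separate cultures, so a p-value here reflects the scatter of these libraries alone, which may be technical.

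PMP22 and the EMP proteins cross the membrane 4 times and are distant relatives of the claudins, which seal epithelial junctions. PMP22 is best known as a protein of the compact myelin made by Schwann cells, where changes of its gene dose cause inherited neuropathies, and it was also found as a gene of growth-arrested fibroblasts. The EMP proteins are named for epithelial membranes. EMP1 has been described as a marker of the colorectal cancer cells that seed relapse, EMP2 as a partner of integrins and caveolins at the cell surface, and EMP3 as a gene silenced or raised in different tumour types.

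Deposited totals ran from 21524463 to 22941231 per library, and the values are read counts that were scaled per library and rounded before deposit, so they are called deposited values here. ASCL2 was 805 and 697 in doxycycline-treated and 2540 and 2034 in untreated libraries of the WiNTRLINC1 line, and 532 and 586 in treated and 2855 and 3373 in untreated libraries of the ASCL2 line. Every treated library thus lay below every untreated one in both lines. ASCL2 was 3.03-fold lower with doxycycline in the WiNTRLINC1 line and 5.55-fold lower in the ASCL2 line, and the difference of these responses was 0.87 ± 0.165 on the log2 scale (SE, limma adjusted p = 0.00206). The larger fall was in the line whose title names ASCL2, but a fall in both lines does not settle which hairpin a line held. Of 12 colon epithelial markers all were tested. With doxycycline 3 rose and 4 fell in the WiNTRLINC1 line, while 0 rose and 6 fell in the ASCL2 line (limma adjusted p under 0.05). At an unadjusted limma p under 0.05 there were 10 of the 12 in the WiNTRLINC1 line and 7 in the ASCL2 line. Over all tested genes 18.6% were called in the WiNTRLINC1 line and 26.6% in the ASCL2 line. The summed value of the 12 markers was 125531 to 129366 in treated and 153995 to 161462 in untreated libraries of the WiNTRLINC1 line. In the ASCL2 line it was 190880 to 211297 in treated and 206476 to 227072 in untreated libraries. Most of the difference within the WiNTRLINC1 line was that of 1 gene, the keratin KRT18, at 8197 and 7734 in treated and 38977 and 36188 in untreated libraries, while MUC2, CEACAM5 and KRT20 rose there. GPA33 and CDX2 fell in both lines, with log2 fold changes of -0.81 and -0.35 in the WiNTRLINC1 line and -1.60 and -0.76 in the ASCL2 line. CDH1 also fell in the WiNTRLINC1 line (-0.46). KRT20 went the other way in the ASCL2 line, where it fell (-0.68).

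PMP22 and EMP1 had the same order of groups, so the stretches before their transcription starts are shown. The RefSeq table (GRCh38.p14) held 7 start windows for the family, 3 for PMP22, 1 for EMP1, 1 for EMP2 and 2 for EMP3, and the 250 bases before each start were searched. The letters searched on both strands were CANNTG (the E-box read by basic helix-loop-helix factors such as ASCL2), TGANTCA (AP-1), GGAATG (TEAD) and CTTTGAT (TCF/LEF). Capitals mark E-box and AP-1 matches in the window of EMP1 (chr12:13196476-13196725, plus strand) and in the only PMP22 window with a match, that of the second start listed (chr17:15262553-15262802, minus strand).
EMP1: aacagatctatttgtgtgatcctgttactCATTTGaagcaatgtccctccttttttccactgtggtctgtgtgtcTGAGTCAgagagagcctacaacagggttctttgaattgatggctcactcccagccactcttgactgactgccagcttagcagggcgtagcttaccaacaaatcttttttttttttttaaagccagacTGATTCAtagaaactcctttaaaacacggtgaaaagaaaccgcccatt
PMP22: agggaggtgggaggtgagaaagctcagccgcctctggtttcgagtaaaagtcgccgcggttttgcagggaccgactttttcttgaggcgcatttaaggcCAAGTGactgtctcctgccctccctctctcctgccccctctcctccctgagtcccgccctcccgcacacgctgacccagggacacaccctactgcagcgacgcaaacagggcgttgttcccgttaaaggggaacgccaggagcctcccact
EMP1 held TGAGTCA 175 bases and TGATTCA 48 bases before its start, counted from the first base of the match, and 1 E-box, CATTTG, 221 bases before it. PMP22 held 1 E-box, CAAGTG, 151 bases before this start. No match overlapped another. AP-1 letters were found in 6.57% of all 35116 windows of the table and E-box letters in 61.8%, so an E-box is what most windows hold. Each EMP3 window had 1 E-box, CAGCTG before the first start listed and CACTTG before the second, each at 249 bases. The EMP2 window had no match to any of the 4 motifs. TEAD letters, present in 11.9% of all windows, and TCF/LEF letters, present in 2.26%, were found in 0 of the 7. The windows also differed in base composition, with 42.4% G and C before EMP1 and 77.2% before EMP2. A match is a description of letters and was not tested as a binding site.

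PMP22 was 913 and 918 in the treated and 239 and 224 in the untreated libraries of the WiNTRLINC1 line. In the ASCL2 line it was 3688 and 4165 in treated and 1881 and 1722 in untreated libraries. The treated libraries lay above the untreated ones in each line with no overlap, and yet both treated libraries of the WiNTRLINC1 line lay below both untreated libraries of the ASCL2 line. The 4 groups therefore stood in steps, lowest in the untreated WiNTRLINC1 line and highest in the treated ASCL2 line, with each step larger than the spread within the groups. With n = 2 per group the response of the WiNTRLINC1 line was 3.94-fold (log2 fold change 1.98 ± 0.091 SE) and 2.18-fold in the ASCL2 line (1.12 ± 0.091 SE), on the log2(value + 1) scale. The difference of the responses, WiNTRLINC1 line minus ASCL2 line, was 0.86 ± 0.129 (SE). Only 34 of the 22100 tested genes had a larger log2 fold change than PMP22 in the WiNTRLINC1 line, and 452 did in the ASCL2 line.

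EMP1 was 188 and 246 in the treated and 56 and 47 in the untreated libraries of the WiNTRLINC1 line. The ASCL2 line had EMP1 at 734 and 694 in treated and 343 and 330 in untreated libraries. The order of the groups was that of PMP22, again without overlap between any 2 groups, although the treated WiNTRLINC1 libraries spread more than the others. EMP1 responded 4.13-fold in the WiNTRLINC1 line (log2 fold change 2.05 ± 0.156 SE) and 2.12-fold in the ASCL2 line (1.08 ± 0.156 SE). The difference of its responses was 0.96 ± 0.221 (SE), with the larger response on the log2 scale in the line that started lower, as for PMP22. In deposited values the rise was larger in the ASCL2 line. There the group means went from 336.5 to 714 for EMP1 and from 1801.5 to 3926.5 for PMP22. In the WiNTRLINC1 line they went from 51.5 to 217 and from 231.5 to 915.5. Of all tested genes 31 had a larger log2 fold change than EMP1 in the WiNTRLINC1 line and 502 in the ASCL2 line. As the background of these comparisons, limma called 18.6% of tested genes in the WiNTRLINC1 line (9.54% higher and 9.03% lower) and 26.6% in the ASCL2 line (13.9% higher and 12.7% lower) at a Benjamini-Hochberg adjusted p under 0.05.

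**Figure D1:**
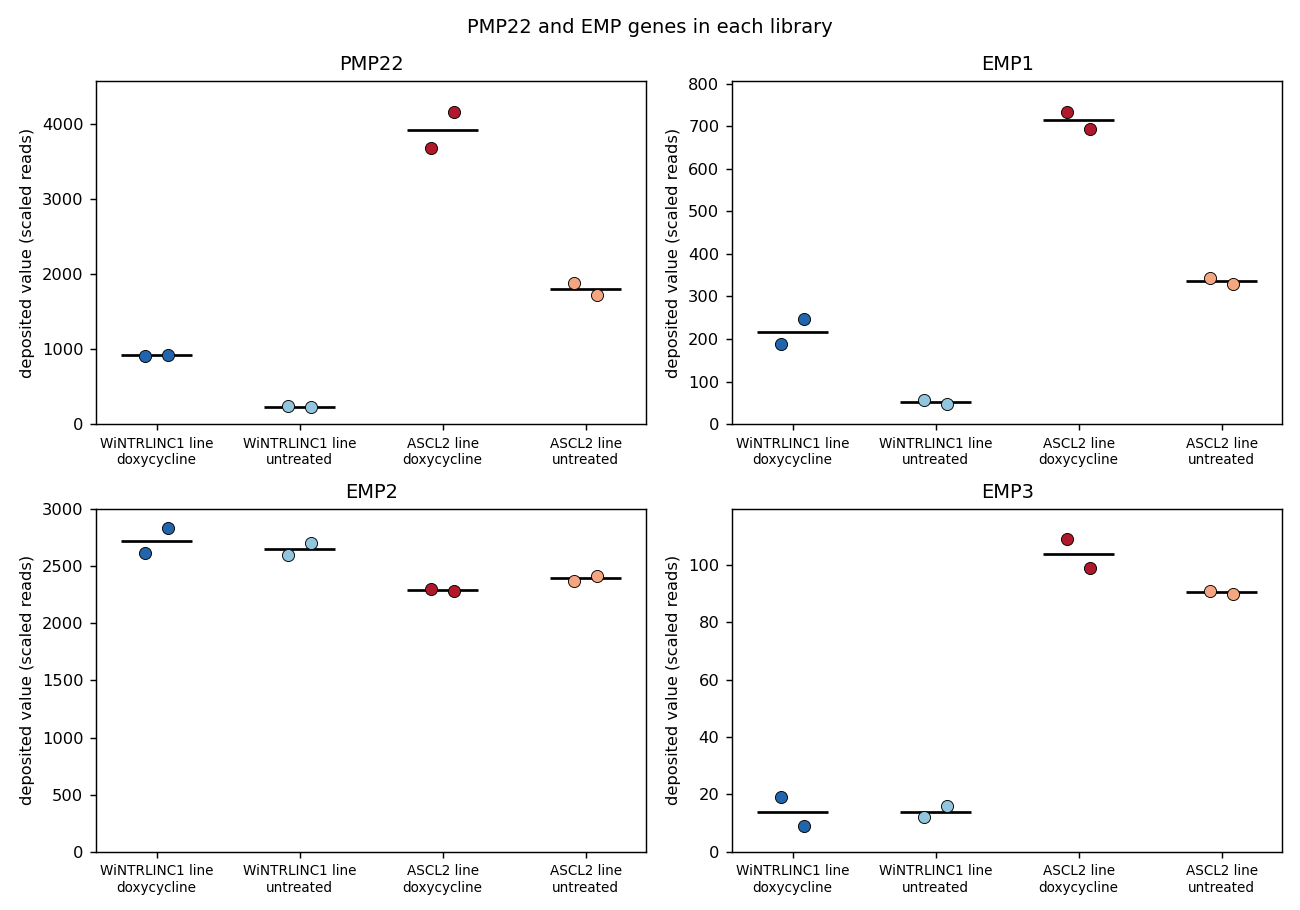
Deposited value (scaled reads, linear axes from 0) of each gene in each library: points are the 2 libraries of a group and bars their mean. PMP22 and EMP1 show the same 4 steps, from 224 to 4165 and from 47 to 734, EMP2 stays between 2287 and 2833, and EMP3 lies between 9 and 19 in the WiNTRLINC1 line and between 90 and 109 in the ASCL2 line.

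EMP2, the member with the steadiest level, was 2614 and 2833 in treated and 2600 and 2699 in untreated libraries of the WiNTRLINC1 line. The ASCL2 line had EMP2 at 2301 and 2287 in treated and 2372 and 2413 in untreated libraries. Treated and untreated libraries overlapped in the WiNTRLINC1 line, and in the ASCL2 line the treated ones lay slightly below. The log2 fold change of EMP2 was 0.04 ± 0.074 (SE) in the WiNTRLINC1 line (adjusted p = 0.791, limma) and -0.06 ± 0.074 in the ASCL2 line (adjusted p = 0.599, limma). The 95% intervals of the fold ran from 0.921 to 1.15 in the WiNTRLINC1 line and from 0.859 to 1.07 in the ASCL2 line, so a response of the size seen for PMP22 or EMP1 lay far outside them.

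EMP3, with low values throughout, was 19 and 9 in treated and 12 and 16 in untreated libraries of the WiNTRLINC1 line, which overlapped. The ASCL2 line had EMP3 at 109 and 99 in treated and 91 and 90 in untreated libraries, so the treated ones lay above the untreated ones there. Its log2 fold change was -0.07 ± 0.342 (SE) in the WiNTRLINC1 line (adjusted p = 0.922, limma) and 0.20 ± 0.342 in the ASCL2 line (adjusted p = 0.724, limma). At these low values the 95% intervals were wide, from 0.573-fold to 1.58-fold in the WiNTRLINC1 line and from 0.691-fold to 1.90-fold in the ASCL2 line. The sign of the small change in the WiNTRLINC1 line turned without its second treated library (log2 fold change 0.43) or its second untreated library (0.12). Of EMP2 and EMP3, limma called 0 of 2 in either line, with 0 at an unadjusted p under 0.05. The difference between the lines' responses was 0.10 ± 0.104 for EMP2 (limma adjusted p = 0.608) and -0.27 ± 0.483 for EMP3 (limma adjusted p = 0.787), in a comparison where 15% of tested genes were called, 7.39% higher and 7.6% lower.

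**Figure D2:**
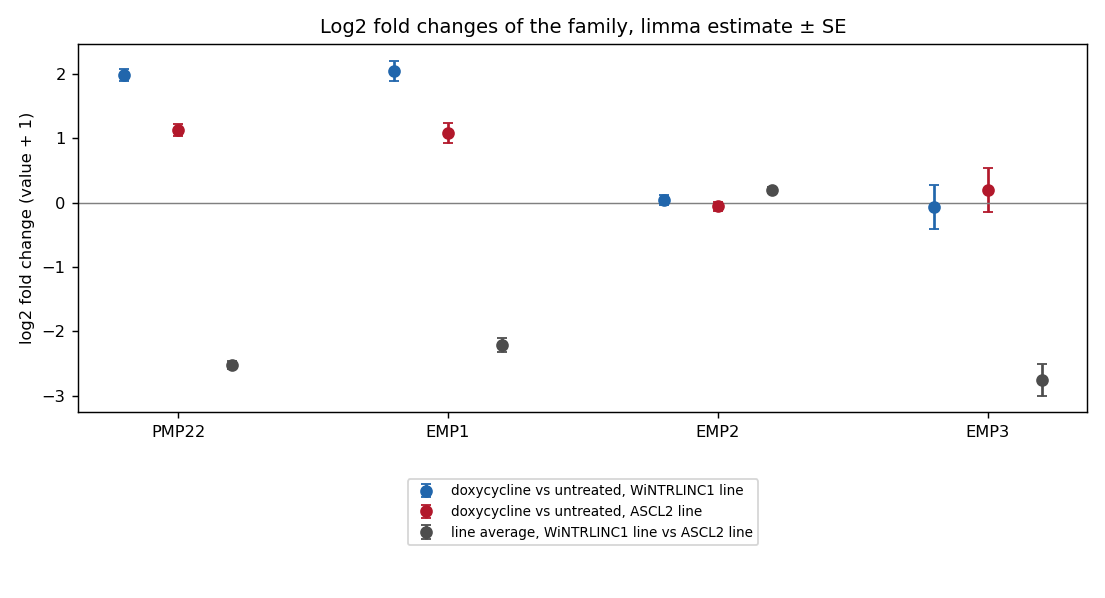
Log2 fold change of each gene (vertical axis, log2 of value + 1), limma estimate with bars of 1 SE, for doxycycline against untreated cells in the WiNTRLINC1 line and in the ASCL2 line and for the WiNTRLINC1 line against the ASCL2 line. PMP22 and EMP1 lie near 2 and near 1 in the doxycycline comparisons, EMP2 and EMP3 near 0, and only EMP2 lies above 0 between the lines.

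The line comparison used the mean of the 4 WiNTRLINC1 libraries minus the mean of the 4 ASCL2 libraries on the log2 scale, which is independent of the doxycycline responses in this balanced design. PMP22 was 5.76-fold lower in the WiNTRLINC1 line (log2 fold change -2.53 ± 0.064 SE, limma with Benjamini-Hochberg adjusted p = 1.13e-13). EMP1 was 4.62-fold lower (-2.21 ± 0.111 SE, limma adjusted p = 1.55e-10) and EMP3 6.76-fold lower (-2.76 ± 0.242 SE, limma adjusted p = 8.36e-08). For each of these 3 genes all 4 WiNTRLINC1 libraries lay below all 4 ASCL2 libraries. EMP2 was 1.15-fold higher (0.20 ± 0.052 SE, limma adjusted p = 0.00367), and its 4 WiNTRLINC1 libraries, from 2600 to 2833, lay above the 4 ASCL2 libraries, from 2287 to 2413. All 4 members were thus called, but the lines differed widely: 69.2% of all tested genes were called, 32.4% higher and 36.8% lower, so being called sets no member apart. Their place in the distribution says more of their size, since 2.75% of tested genes had a lower log2 fold change than PMP22, 3.84% than EMP1 and 2.23% than EMP3, against 61.8% for EMP2. In bulk RNA a lower level can come from fewer expressing cells or from less RNA per cell, and these cannot be told apart.

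**Figure D3:**
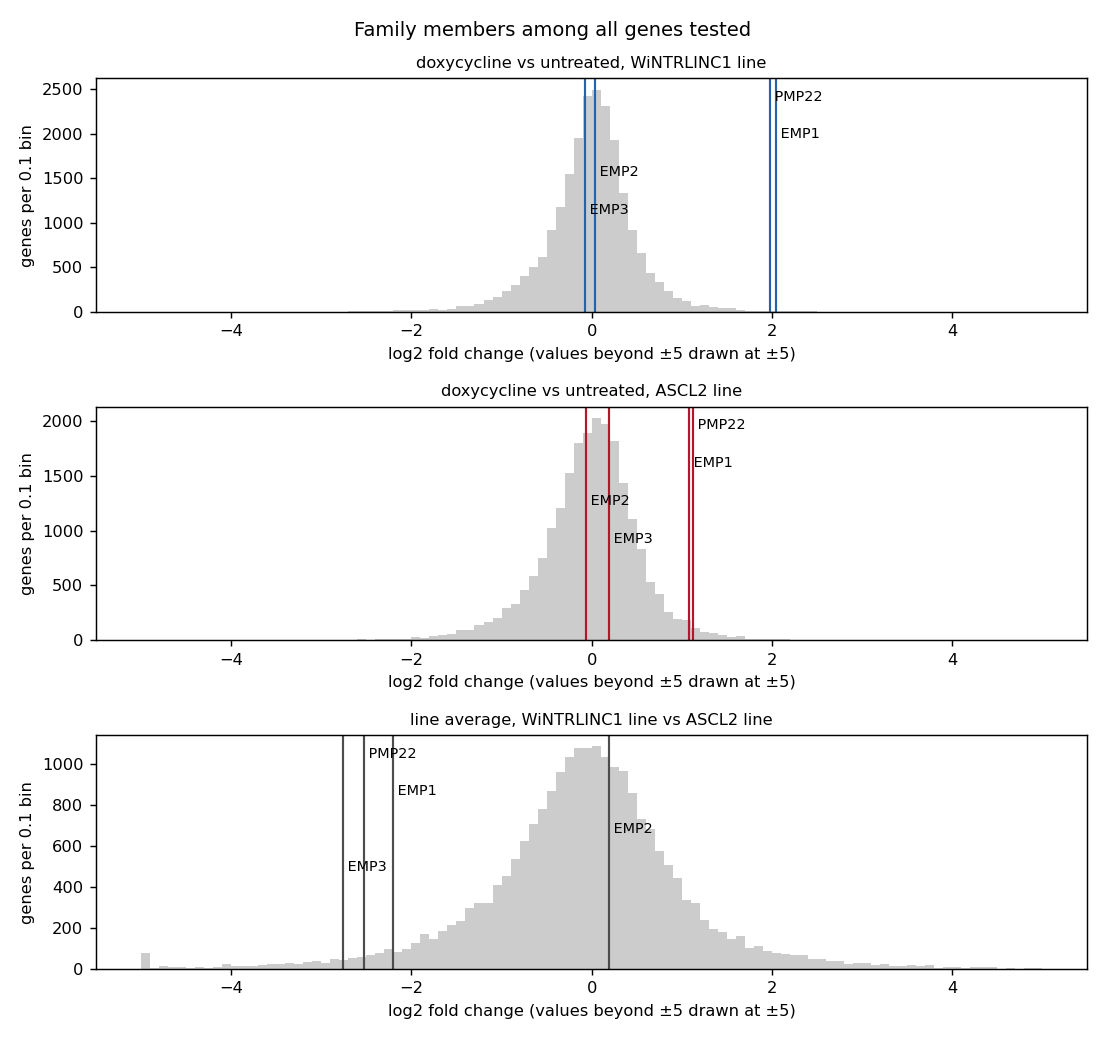
Histograms of the log2 fold changes of all 22100 tested genes (0.1 bins, values beyond 5 in either direction drawn at the edge) with vertical lines at the 4 members. The upper panels hold the doxycycline responses of the WiNTRLINC1 and ASCL2 lines and the lowest the line comparison, where PMP22, EMP1 and EMP3 lie in the left tail and EMP2 near the centre.

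Divided by exon length, the members changed rank between the groups. Per kb of exon in the GENCODE 29 annotation, EMP2 had the highest level in the untreated WiNTRLINC1 line, at 304 per kb as the group mean against 71.8 for PMP22, 8.40 for EMP3 and 6.57 for EMP1. In the untreated ASCL2 line PMP22 led at 559 per kb, before EMP2 at 274, EMP3 at 54.3 and EMP1 at 42.9. With doxycycline, PMP22 came to 284 per kb beside EMP2 at 312 in the WiNTRLINC1 line, and to 1219 beside 263 in the ASCL2 line. As a share of the family's summed value per kb, PMP22 was 45.8% and 44.1% in treated and 19.2% and 17.6% in untreated WiNTRLINC1 libraries. In the ASCL2 line its share was 73.0% and 75.9% in treated and 61.2% and 58.9% in untreated libraries. EMP1 stayed under 6% in every library and EMP3 likewise, so by this measure the family's transcripts were in the main those of PMP22 and EMP2. The length used was that of all annotated exons of a gene together, 7838 bases for EMP1 and 1667 for EMP3. It can exceed the length of the RNA expressed, so ranks and shares between genes depend on it.

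**Figure D4:**
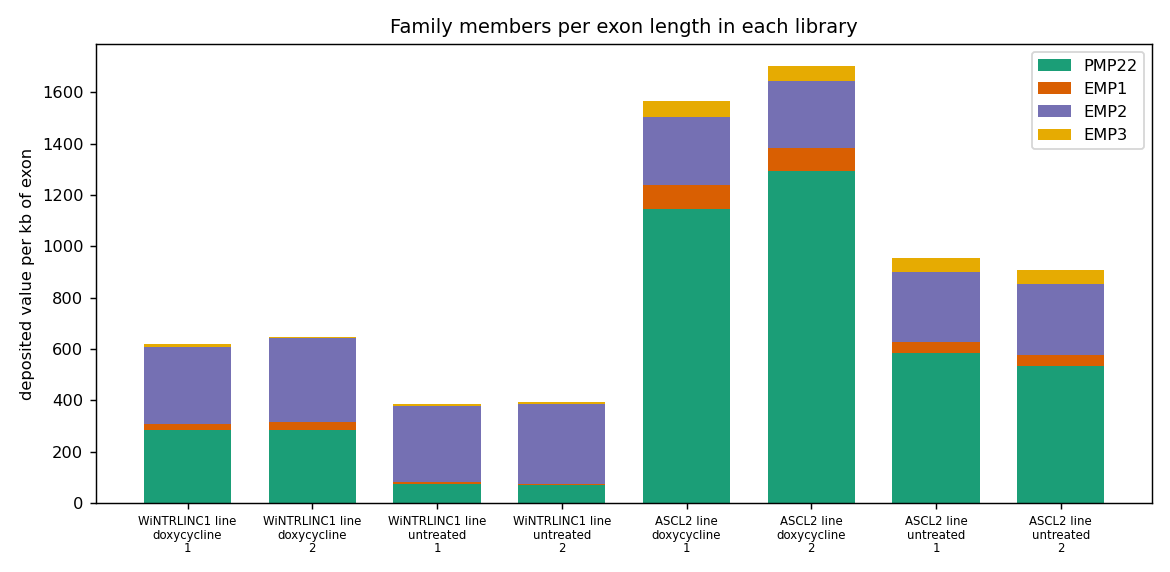
Stacked bars of the deposited value per kb of exon of each member in each of the 8 libraries. The summed height runs from 387 in an untreated WiNTRLINC1 library to 1703 in a treated ASCL2 library, while the EMP2 segment stays between 262 and 325.

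Across the 8 libraries the log2 values of PMP22 and EMP1 had a Pearson r of 0.994, and 0.989 after the mean of each line was subtracted, a description of points that share lines and treatments. With EMP3 the r of PMP22 was 0.829 over all libraries and 0.03 with line means subtracted. Both genes differed between the lines, and EMP3, at its low values, was not called with doxycycline in either line. Among the 10703 protein-coding genes averaging 100 or more, PMP22 ranked second in likeness to EMP1, after IDH1, the cytosolic isocitrate dehydrogenase (r = 0.995). That rank was for values without subtraction. After subtraction of line means, 8 genes passed an r of 0.99 with EMP1, and PMP22, at 0.989, was not among them. Likewise 23 genes passed it with PMP22, and EMP1 was not among them. PMP22 and EMP1 were both chosen by higher values with doxycycline, which favours a high r between them. The genes most like PMP22 over the 8 libraries were ITM2C, an integral membrane protein (r = 0.997), IDH1 (0.997), FAH, the last enzyme of tyrosine breakdown (0.996), ITGB1BP1, which binds the tail of an integrin chain (0.996), and LHFPL2, another tetraspan protein (0.996). ITM2C had a much smaller range than PMP22, at 3805 and 4045 in treated and 2732 and 2689 in untreated WiNTRLINC1 libraries, and 5590 and 5884 in treated and 4936 and 4555 in untreated ASCL2 libraries. LHFPL2 had 416 and 356 in treated and 161 and 162 in untreated WiNTRLINC1 libraries, and 1072 and 1016 in treated and 673 and 659 in untreated ASCL2 libraries.

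With line means subtracted, ULBP2, a stress ligand for natural killer cells, was most like PMP22 (r = 0.999) and was also among the 5 most like EMP1 (r = 0.993). Next to PMP22 stood FDPS, a sterol pathway enzyme (0.997), UGT8, which makes the galactolipid of myelin (0.996), the semaphorin receptor PLXND1 (0.996) and FAH (0.996). UGT8 had 3986 and 4026 in treated and 1772 and 1896 in untreated WiNTRLINC1 libraries, against 5089 and 5283 in treated and 3297 and 3244 in untreated ASCL2 libraries. EMP1 was most like the glycosyltransferase B4GALNT3 (0.996), the carboxylesterase CES1 (0.995), the sialyltransferase ST6GALNAC6 (0.994) and the cytokine IL33 (0.994). IL33 had 431 and 484 in treated and 170 and 160 in untreated WiNTRLINC1 libraries, and 2549 and 2428 in treated and 1687 and 1576 in untreated ASCL2 libraries, which are the same 4 steps. For EMP2 the most alike over all libraries was MRPL1, a mitochondrial ribosomal protein (r = 0.992), and for EMP3 it was FBXL15, an F-box protein (0.996), followed by the homeobox gene NKX2-3 (0.996). NKX2-3 had 5, 1, 2 and 5 in the 4 WiNTRLINC1 libraries and between 222 and 346 in those of the ASCL2 line. Of the 10703 genes compared over all libraries, 15 passed an r of 0.99 with PMP22, 6 with EMP1, 1 with EMP2 and 6 with EMP3.

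The claudins and other tetraspan relatives of the family were read from a list of 34 genes, of which 17 passed the filter on low values. With doxycycline limma called 2 of them higher and 1 lower in the WiNTRLINC1 line, against 7 higher and 2 lower in the ASCL2 line. Over all tested genes 9.54% were called higher and 9.03% lower in the WiNTRLINC1 line, and 13.9% and 12.7% in the ASCL2 line. The median log2 fold change of the 17 was 0.04 in the WiNTRLINC1 line and 0.36 in the ASCL2 line, where all tested genes had a median of 0.01 in each. CLDN2, a claudin that forms cation channels in leaky epithelia, rose in the ASCL2 line, at 10695 and 11658 in treated against 2668 and 3397 in untreated libraries (log2 fold change 1.89 ± 0.098 SE, limma adjusted p = 8.82e-09). In the WiNTRLINC1 line it was 5771 and 5664 against 5265 and 5770, and the difference of its responses was -1.84 ± 0.139 (limma adjusted p = 1.02e-06). CLDN4, a claudin of tight epithelia, fell by 0.29 in the WiNTRLINC1 line (limma adjusted p = 0.0265) and rose by 0.66 in the ASCL2 line (4.99e-05, limma adjusted p) on the log2 scale. CLDN1, a junction-sealing claudin, fell by 1.34 in the ASCL2 line (limma adjusted p = 4.31e-05). The scarce CLDN14 was lower by 2.45 there, at 1 and 7 in treated against 23 and 19 in untreated libraries. It passed the filter only because of those untreated libraries, so this difference, though counted among the 2 lower, is a description without a test. Relatives that rose in the WiNTRLINC1 line were PERP, a p53-induced tetraspan protein of desmosomes, by 0.23 (limma adjusted p = 0.0324), and CLDND1 by 0.43 (0.0261, limma adjusted p). Both also rose in the ASCL2 line, PERP by 0.36 (limma adjusted p = 0.00166) and CLDND1 by 0.59 (0.00245, limma adjusted p).

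Between the lines 4 of these 17 relatives were higher and 8 lower in the WiNTRLINC1 line, with a median log2 fold change of -0.20 against -0.05 over all tested genes. In that comparison 69.2% of all tested genes were called, 32.4% higher and 36.8% lower, so being called sets no relative apart. CLDND2 was lower by the largest amount, at 13, 13, 17 and 6 in WiNTRLINC1 libraries and between 86 and 159 in ASCL2 libraries (-3.27 ± 0.264 SE, limma adjusted p = 3.26e-08). CLDN4 was also lower (-1.85 ± 0.060 SE, limma adjusted p = 1.53e-12) while CLDN1 was higher (2.16 ± 0.121 SE, limma adjusted p = 5.37e-10).

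Partners that have been reported for the family, among them integrins, caveolins, tight junction proteins and chaperones that handle PMP22, were read from a list of 19 genes. The filter left 18, and the remaining 1, the integrin chain ITGB3, was at most 5 in any library and is named here after its values were seen. With doxycycline 9 of the 18 rose and 2 fell in the WiNTRLINC1 line (median log2 fold change 0.33), whereas 7 rose and 0 fell in ASCL2 cells (median 0.25). At an unadjusted limma p under 0.05 there were 12 of the 18 in the WiNTRLINC1 line and 8 in the ASCL2 line. Over all tested genes 9.54% were called higher and 9.03% lower in the WiNTRLINC1 line, and 13.9% and 12.7% in the ASCL2 line. The median over all tested genes was 0.01 in each line. CAV2, a caveolin, had 138 and 113 in treated against 58 and 39 in untreated WiNTRLINC1 libraries (log2 fold change 1.37 ± 0.265 SE, limma adjusted p = 0.00195). In the ASCL2 line CAV2 had 134 and 90 against 87 and 64, which did not pass (limma adjusted p = 0.146), and the difference of its responses did not pass either (limma adjusted p = 0.170). The integrin chain ITGB5 rose by 0.70 in the WiNTRLINC1 line (limma adjusted p = 1.08e-05), where it was 1984 and 2087 in treated and 1266 and 1237 in untreated libraries. OCLN, occludin of the tight junction, fell there by 1.09 (limma adjusted p = 1.07e-05), and the adhesion receptor CD44 fell by 0.51 (limma adjusted p = 0.000137). CD44 rose by 0.27 in the ASCL2 line (limma adjusted p = 0.0103), and the difference of its responses was -0.78 ± 0.101 (limma adjusted p = 8.55e-05).

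ITGB4, a chain of the laminin receptor that binds PMP22 in Schwann cells, rose in the WiNTRLINC1 line by 0.41 (limma adjusted p = 0.00109) and in the ASCL2 line by 0.58 (3.57e-05, limma adjusted p). ITGB1, the most widely shared integrin beta chain, rose in the WiNTRLINC1 line by 0.48 (limma adjusted p = 0.000309) and in the ASCL2 line by 0.44 (0.000477, limma adjusted p). The growth factor receptor EGFR rose in the WiNTRLINC1 line by 0.38 (limma adjusted p = 0.00339) and in the ASCL2 line by 0.54 (0.00015, limma adjusted p). TGFBR2, a receptor of TGF-beta, rose in the ASCL2 line by 0.50 (limma adjusted p = 0.000455) and had -0.19 in the WiNTRLINC1 line (0.135, limma adjusted p). The difference of its responses was -0.70 ± 0.119 (limma adjusted p = 0.000939). Each of these changes was smaller than those of PMP22 and EMP1 in the same line, but PMP22 and EMP1 were chosen by their rise with doxycycline.

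**Figure D5:**
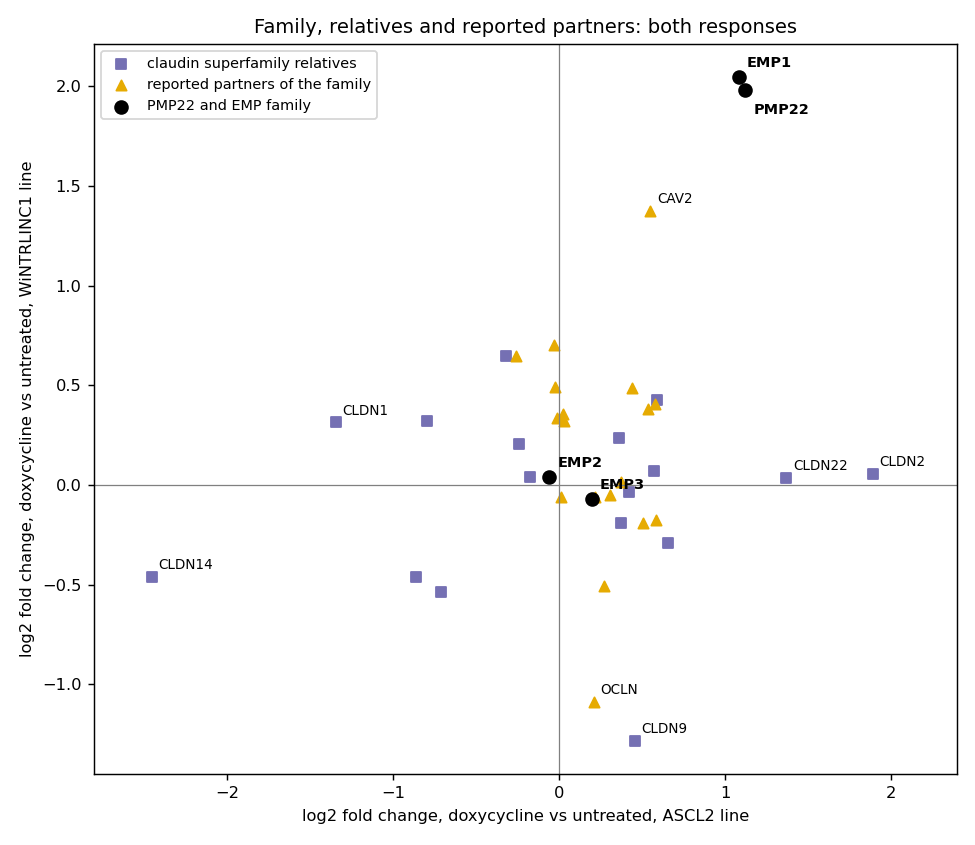
Log2 fold change with doxycycline in the ASCL2 line (horizontal) and in the WiNTRLINC1 line (vertical) for the 4 members (circles), 17 claudin superfamily relatives (squares) and 18 reported partners (triangles). PMP22 and EMP1 lie alone at the upper right, near 1.1 and 2.0, a place that follows from their choice by higher values with doxycycline. CLDN2 lies further right, at 1.89, but at 0.05 on the vertical axis. EMP2 and EMP3 lie near the centre.

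Among markers of other cell types some were near 0 and others were as high as EMP1 or EMP3. In the Schwann cell and myelin list, SOX10 was at most 7 and S100B at most 3 in any library. PRX, the myelin gene of periaxin, named after its values were seen, was 160 and 132 in treated and 223 and 167 in untreated WiNTRLINC1 libraries, and 292 and 263 in treated and 275 and 306 in untreated ASCL2 libraries, above EMP3 in every library. MBP, also expressed outside the nervous system, made up most of a summed value of 3041 to 3088 in treated and 3123 to 3241 in untreated WiNTRLINC1 libraries, and 3115 to 3313 in treated and 3694 to 3788 in untreated ASCL2 libraries. Of its 12 members 6 were tested, and limma called 0 for the WiNTRLINC1 cells, although 1 had an unadjusted p under 0.05, and 1, MBP, as lower in the ASCL2 line by 0.25 (limma adjusted p = 0.018), where 2 had an unadjusted p under 0.05. EGR2, an activator of PMP22 in Schwann cells, was 5, 2, 2 and 5 in the 4 WiNTRLINC1 libraries, 44 and 42 in treated and 19 and 15 in untreated ASCL2 libraries, a difference within the ASCL2 line that did not pass (log2 fold change 1.30 ± 0.526 SE, limma adjusted p = 0.0839). It was lower in the WiNTRLINC1 line (-2.73 ± 0.372 SE), but it passed the filter only through the ASCL2 line, so this is a description without a test. The 10 fibroblast and mesenchymal markers summed to between 181 and 241 in treated and 206 and 214 in untreated WiNTRLINC1 libraries, and to 300 to 307 in treated and 436 to 465 in untreated ASCL2 libraries. Limma called 0 of the 6 tested in the WiNTRLINC1 line, though 1 had an unadjusted p under 0.05, and 1 lower in the ASCL2 line, the collagen gene COL1A1, at 60 and 99 in treated against 200 and 222 in untreated libraries (limma adjusted p = 0.00251). Endothelial markers summed to at most 45, and limma called 0 of the 2 tested in either line, with 0 at an unadjusted p under 0.05. Leukocyte and blood markers summed to between 166 and 192 in the WiNTRLINC1 line, and to 420 and 484 in treated and 262 and 241 in untreated ASCL2 libraries. HBB, a haemoglobin chain, made up most of the ASCL2 line sums and rose there by 1.32 (limma adjusted p = 0.000264), while 0 of the 6 tested were called in the WiNTRLINC1 line, though 2 had an unadjusted p under 0.05. These counts stand beside 18.6% of all tested genes called in the WiNTRLINC1 line and 26.6% in the ASCL2 line. No listed marker found in the files was at 0 in all libraries, and the part of the markers in the levels of PMP22 and EMP1 was not tested.

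The 3 nearest tested genes on each side of every member were read as a description of its surroundings. Of these 24 neighbours 2 rose and 4 fell with doxycycline in the WiNTRLINC1 line, and 3 rose and 1 fell in the ASCL2 line. Over all tested genes 18.6% were called in the WiNTRLINC1 line (9.54% higher, 9.03% lower) and 26.6% in the ASCL2 line (13.9% higher, 12.7% lower). The 24 include neighbours of EMP2 and EMP3, which were not called with doxycycline. Of 6 neighbours of PMP22, 1 rose and 0 fell in the WiNTRLINC1 line, and 2 rose and 0 fell in the ASCL2 line. Of 6 of EMP1, 1 rose and 2 fell in the WiNTRLINC1 line, and 1 rose and 1 fell in the ASCL2 line. These counts are small, and a spread of changes along the chromosome was not tested. Next to EMP1, the non-coding RNA gene LINC01559 had 248 and 281 in treated and 217 and 190 in untreated WiNTRLINC1 libraries, and 851 and 917 in treated and 412 and 372 in untreated ASCL2 libraries. It rose in the WiNTRLINC1 line by 0.38 (limma adjusted p = 0.0465) and in the ASCL2 line by 1.17 (7.38e-06, limma adjusted p). The difference of its responses was -0.80 ± 0.175 (limma adjusted p = 0.00608), opposite in sign to that of EMP1. On the other side of EMP1, FAM234B fell by 0.91 in the WiNTRLINC1 line (limma adjusted p = 0.000539) and by 0.87 in the ASCL2 line (0.000591, limma adjusted p). Near PMP22, COX10, an assembly factor of cytochrome oxidase, rose by 0.38 (limma adjusted p = 0.0279) in the WiNTRLINC1 line and by 0.57 in the ASCL2 line (0.00173, limma adjusted p), and TVP23C rose in the ASCL2 line by 0.69 (limma adjusted p = 0.00513). Around EMP2 limma called 0 of 6 neighbours in either line; at an unadjusted p under 0.05 there were 0 in WiNTRLINC1 and 2 in ASCL2 cells. Beside EMP3, TMEM143 fell by 0.51 (limma adjusted p = 0.0208) and KDELR1, a receptor that returns proteins to the endoplasmic reticulum, by 0.21 (limma adjusted p = 0.0433) in the WiNTRLINC1 line.

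Between the lines 4 of the 24 neighbours were higher and 8 lower in the WiNTRLINC1 line, where 69.2% of all tested genes were called. ZNF114, the second gene before EMP3, was 24, 8, 18 and 17 in WiNTRLINC1 libraries and between 118 and 156 in ASCL2 libraries (-3.04 ± 0.264 SE, limma adjusted p = 7.45e-08), a difference about as large as that of EMP3. ODAD1, which lies between ZNF114 and EMP3 among the tested genes, had -0.28 ± 0.268 (limma adjusted p = 0.365). HS3ST3B1, near PMP22, was also lower, at 5, 6, 4 and 4 in WiNTRLINC1 libraries and between 20 and 27 in ASCL2 libraries (-2.02 ± 0.319 SE). It passed the filter on low values only through the ASCL2 line, so this difference, though counted above, is a description without a test. Other neighbours went the opposite way to their member. CDRT4, directly beside PMP22 among the tested genes, was higher in the WiNTRLINC1 line, at 7, 10, 4 and 10 against 2, 0, 2 and 0 in ASCL2 libraries (2.27 ± 0.581 SE). This scarce gene passed the filter only through WiNTRLINC1 libraries at 10, so its line difference, though counted above, is a description without a test. GRIN2B, near EMP1, an NMDA receptor subunit, was also higher (0.81 ± 0.076 SE, limma adjusted p = 1.71e-07).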

How the data were processed

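RNA was measured in 8 libraries, 4 groups of 2. Per the submitters' processing notes, the tools cutadapt, TopHat2 2.0.9, Cufflinks and DESeq and the builds hg19, GRCh37 and mm9 were named without a role, while how reads were counted, and whether by strand, was not given in the sources used here. Each deposited score per gene is a whole number made by the authors from read counts that were scaled per library and rounded: in 7 of 8 libraries some low whole numbers are missing or over-used, so raw counts and depths are not known. Totals were 21524463 to 22941231, and the 2 libraries per group limit precision. With the deposited values taken as counts, the chi-square per degree of freedom between replicates was 5.06 to 7.26. As the scaling is not known, this does not measure an excess over counting noise.

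Symbols matched 51959 of 57736 identifiers. Exon lengths, gene types, chromosomes and neighbours came from GENCODE 29 and promoter windows from RefSeq (GRCh38.p14). The build of the files is not given with certainty, so no coordinates of measured genes are printed. Genes reaching a value of 10 in 2 or more libraries were tested. The tool was limma 3.58.1 (R 4.3.3), given log2(value + 1), a prior that follows mean level, and all groups in 1 fit (4 residual and 10.5 prior degrees of freedom), two-sided, Benjamini-Hochberg over 22100 genes, threshold 0.05. The fit was run on simulated unscaled counts without line differences, which checks the code and not its use on scaled values. The log2(value + 1) scale understates changes of low genes.

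The members and gene lists were chosen with earlier results of these data known. Named genes are the members, ASCL2, up to 4 called members per list and comparison with the largest change, 3 neighbours per side, and the 5 genes per member with the highest correlation; further genes named for a level were chosen after their values were seen. Alternatives were another pseudocount, no filter, other scalings (trimmed means of M values, size factors, quantiles), no trend, a replicate block, each line alone, and leaving out each library. The endothelial marker PECAM1 and the WiNTRLINC1 transcript were not analysed here, and 1 listed marker is not reported here.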

Additional observations from a re-analysis of the deposited data

How the results depend on the processing

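The line differences of PMP22, EMP1, EMP2 and EMP3 kept their direction and their call under all 16 alternatives each, from -2.57 to -2.47, from -2.30 to -2.08, from 0.17 to 0.25 and from -3.01 to -2.45 on the log2 scale, with limma adjusted p at most 0.029. The doxycycline responses of PMP22 stayed between 1.93 and 2.03 in the WiNTRLINC1 line and between 1.03 and 1.21 in the ASCL2 line, and those of EMP1 between 1.85 and 2.24 and between 1.04 and 1.12. Leaving out 1 library gave 0.77 to 0.95 for the difference of responses of PMP22 and 0.77 to 1.16 for that of EMP1. For EMP2 in the WiNTRLINC1 line it gave -0.0192 to 0.0968, for EMP3 there -0.57 to 0.43, and for the difference of the responses of EMP3 -0.77 to 0.23, so the sign of these small changes turned with 1 library. Quantile normalization turned EMP3 in the WiNTRLINC1 line to 0.0136. The cause of these turns was not tested. No alternative called EMP2 or EMP3 in a doxycycline comparison (limma adjusted p at least 0.299).

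Counts of called genes depended more on the settings. In the WiNTRLINC1 line 4104 genes were called, and 2395 without the filter, 1873 without the trend, 2713 with the line fitted alone, and 2393 to 4126 when 1 library was left out, with 2673 without the first untreated, 2688 without the first treated and 2393 without the second treated library. In the ASCL2 line 5884 were called, 3410 without the trend and 3662 to 5824 when 1 library was left out, the lowest without its second treated library. For the difference of responses 3314 were called, 1914 without the filter and 1313 without the trend. Correlations of same-numbered deviations lay between -0.052 and 0.105. They were taken over all tested genes, scarce ones included, so they do not settle whether replicate numbers pair the libraries. A replicate block within each line gave 4298, 6148, 3511 and 15437 calls for the WiNTRLINC1 line, the ASCL2 line, the difference and the line comparison. Without the block these were 4104, 5884, 3314 and 15297. The block raised each count. It changed no call of a member. Low values limit EMP3 most.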
